A study of Mus musculus with 48 samples.

Results

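Lcn2, Procr and Avil are 3 of the 49568 genes in a read-count table of RAW264.7 cells, a mouse macrophage line. They were selected on the edgeR adjusted p and the fold change of the peptide LE against the PBS control in the letter-labelled libraries. No other gene was called there by edgeR with its low-count filter and no replicate block. More genes were called without that filter or with that block. The members' values in that comparison are therefore given as a description and not as a test. The cells received PBS or a synthetic 15-residue peptide at 100 µg/ml, each with or without IFN-γ at 5 ng/ml, and RNA was taken at 72 h with the medium refreshed at 48 h. LE copies a segment of the HLA-DR β chain from an allele that raises the risk of lupus, SE the same segment from a rheumatoid arthritis risk allele, and PE that of a protective allele. The 8 groups are PBS, LE, SE, PE, IFNy, LE+IFNy, SE+IFNy and PE+IFNy, with 3 letter-labelled libraries (replicates 1 to 3) and 3 HLA-labelled libraries (replicates 4 to 6) each. All groups are the same transformed cell line, so replicates are samples of 1 line and p-values measure the spread between those samples, which may be technical. The study describes its replicates as biological, taken over independent experiments.

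Lcn2 encodes lipocalin 2, a secreted acute-phase protein that binds bacterial siderophores and so withholds iron from microbes. It is a classical secondary target of NF-κB, IκBζ (Nfkbiz) and C/EBP factors in activated macrophages, and lipocalin 2 is taken up through the receptor Slc22a17. The human protein circulates partly in a complex with the gelatinase Mmp9. Procr encodes the endothelial protein C receptor, a membrane protein that presents protein C to the thrombin and thrombomodulin (Thbd) complex and binds the activated enzyme, whose protective signals pass through the receptor F2r. Avil encodes advillin, a calcium-regulated actin-severing and bundling protein of the gelsolin/villin superfamily that is best known from sensory neurons and tuft cells.

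In mouse genome build GRCm38 with GENCODE M21, Lcn2 (ENSMUSG00000026822.14) lies on the minus strand of chromosome 2 from 32384633 to 32388252. Procr (ENSMUSG00000027611.12) lies on the plus strand of chromosome 2 from 155751117 to 155755471, and Avil (ENSMUSG00000025432.11) on the plus strand of chromosome 10 from 127000709 to 127020994. Tsfm, a mitochondrial translation factor gene, overlaps Avil on the opposite strand. Tsfm stood at 32.6 to 44.5 CPM (counts scaled to a library total of 1 M, where M stands for mega) in the letter-labelled libraries. Libraries were stranded, but the strand setting of the counting is not given in the sources used here, so reads from the shared stretch cannot be told apart as Avil or Tsfm. Lcn2 has its nearest same-strand neighbour, 1110008P14Rik, 2695 bases away, Avil has Ctdsp2 734 bases away at 27.7 to 59.5 CPM, and Procr has Mmp24 19871 bases away at 0 to 0.527 CPM.

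The stretches upstream of the 3 start sites are shown because the genes were picked from the same contrast without IFN-γ. They come from the RefSeq promoter table (build GRCm38.p6, 1 entry per gene), and bases that GENCODE M21 places in a 5′ UTR of the gene were left out. Capitals mark the matches to the motifs named next. The Lcn2 stretch is chr2:32387798-32387989 (minus strand), part of which is a coding exon of a longer Lcn2 transcript model. The Procr stretch is chr2:155750967-155751116 (plus strand) and the Avil stretch is chr10:127000459-127000708 (plus strand).
Lcn2: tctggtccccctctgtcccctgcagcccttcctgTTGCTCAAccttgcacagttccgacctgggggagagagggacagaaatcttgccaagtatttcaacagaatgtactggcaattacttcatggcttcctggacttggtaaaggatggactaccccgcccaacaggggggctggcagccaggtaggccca
Procr: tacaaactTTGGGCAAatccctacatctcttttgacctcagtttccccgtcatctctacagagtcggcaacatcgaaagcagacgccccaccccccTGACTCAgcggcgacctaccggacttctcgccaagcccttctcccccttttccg
Avil: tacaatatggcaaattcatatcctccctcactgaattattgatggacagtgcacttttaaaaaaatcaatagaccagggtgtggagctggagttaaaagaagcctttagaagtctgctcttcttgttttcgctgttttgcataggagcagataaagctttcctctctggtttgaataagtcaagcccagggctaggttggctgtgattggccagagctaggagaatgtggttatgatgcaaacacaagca

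Motifs were searched on both strands over the 250 bases before each RefSeq start. The C/EBP letters TTNNGNAA occurred 1 time in Lcn2, at bases -216 to -209 from the start, and 1 time in Procr at -242 to -235, and are held by 36.8% of the 32851 promoters of the same length. The AP-1 letters TGANTCA occurred 1 time, in Procr at -154 to -148, and are held by 6.75% of promoters. No match of the STAT letters TTCNNNGAA (7.02% of promoters), the IRF letters GAAANNGAA (7.13%), the TATA letters TATAAA (12.4%) or the κB motif (3.9%) was found in the 3 windows, and the matches are descriptions of letters only. No searched motif was found in all 3 genes. Bases G and C made up 56.4% of the window of Lcn2, 61.6% of that of Procr and 42% of that of Avil.

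Libraries held 16.5 to 26.9 M counts (median 22.9 M) in the letter-labelled and 14.1 to 42.6 M (median 23.2 M) in the HLA-labelled series, and the members' counts in the letter-labelled libraries ran from 225 for Procr to 10031 for Avil. A score of 20 IFN-γ target genes, their mean log2(CPM + 0.5), went with the label in 24 of 24 letter-labelled libraries, at 1.59 to 1.76 where the label lacked IFN-γ and 6.38 to 6.75 where it had it. Among HLA-labelled libraries it went against the label in 12 of 24 libraries, so results of that series stand apart in this text. In the letter-labelled libraries all 8 macrophage markers were above 1 CPM on average. Of the 10 granulocyte markers 1 (Csf3r) was, and of the 7 endothelial markers Kdr and Vwf were, while Ly6g, S100a9, Elane, Camp and Ltf of the former and Tek, Emcn and Tie1 of the latter had at most 3 counts in every library. The granulocyte markers summed to 10.1 to 15.2 CPM without and 23.8 to 51.4 CPM with IFN-γ, with 46.5 to 51.4 CPM in LE+IFNy against 25.7 to 36.7 CPM in IFNy. Csf3r carried most of these sums, with group means of 47.5 CPM in LE+IFNy and 31.2 CPM in IFNy. The endothelial markers summed to 46.6 to 49.2 CPM in SE+IFNy, where Procr was highest, against 23.8 to 42 CPM in IFNy. Their sum did not follow Procr in other groups. It was 43.2 to 48.2 CPM with LE alone, where Procr had 18.5 to 18.8 CPM. In PE+IFNy it was 27.6 to 34.1 CPM, where Procr had 72.7 to 78.3 CPM. Of the 8 tuft cell and sensory neuron markers only Tubb3 exceeded 1 CPM, and their sum was 0.633 to 1.9 CPM without and 3.73 to 6.97 CPM with IFN-γ. The part of these other markers in the members' differences was not tested.

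The first comparison asked whether a peptide acted without IFN-γ. All 3 genes were lowest with PBS and highest with SE among the 4 groups without IFN-γ, in the order PBS, PE, LE, SE. Fewer transcripts per cell and fewer expressing cells cannot be told apart in these bulk libraries. Lcn2 stood at 13.9, 16.1 and 13.8 CPM in the 3 PBS libraries and at 35.6, 33.4 and 38.2 CPM in the 3 LE libraries. With SE it stood at 34.3, 41.9 and 50.4 CPM, and with PE at 17.8, 18.8 and 18.3 CPM. Every peptide library lay above every PBS library, the PE libraries lay below all LE and SE libraries, and LE and SE overlapped. The fitted log2 fold change of LE against PBS was 1.34 ± 0.13 (standard error of the fit, n = 3 libraries a group), a fold of 2.52, that of SE was 1.60 ± 0.13 and that of PE 0.41 ± 0.133.

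Procr, the protein C receptor gene, stood at 10.5, 10.9 and 10.6 CPM with PBS and at 18.8, 18.5 and 18.5 CPM with LE. With SE the values were 20, 23.1 and 28.4 CPM, and with PE 12.8, 15 and 14.2 CPM. The 4 groups did not overlap for Procr. The log2 fold change of LE against PBS was 0.85 ± 0.126, that of SE 1.24 ± 0.126 and that of PE 0.48 ± 0.128.

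Avil, the advillin gene, was the most abundant of the 3 per unit of length. Over its annotated exons of 3398 bases (GENCODE M21) it had 64.4 ± 7.1 CPM per kilobase with PBS (SD, n = 3), against 5.57 ± 0.5 for Lcn2 and 5.24 ± 0.12 for Procr. On the CPM scale it stood at 222, 241 and 194 with PBS and at 316, 316 and 324 with LE. SE gave 367, 370 and 363 CPM and PE gave 248, 248 and 272 CPM. The 4 groups did not overlap for Avil either. The log2 fold change of LE against PBS was 0.59 ± 0.0791, that of SE 0.82 ± 0.0793 and that of PE 0.315 ± 0.0791.

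**Figure D1:**
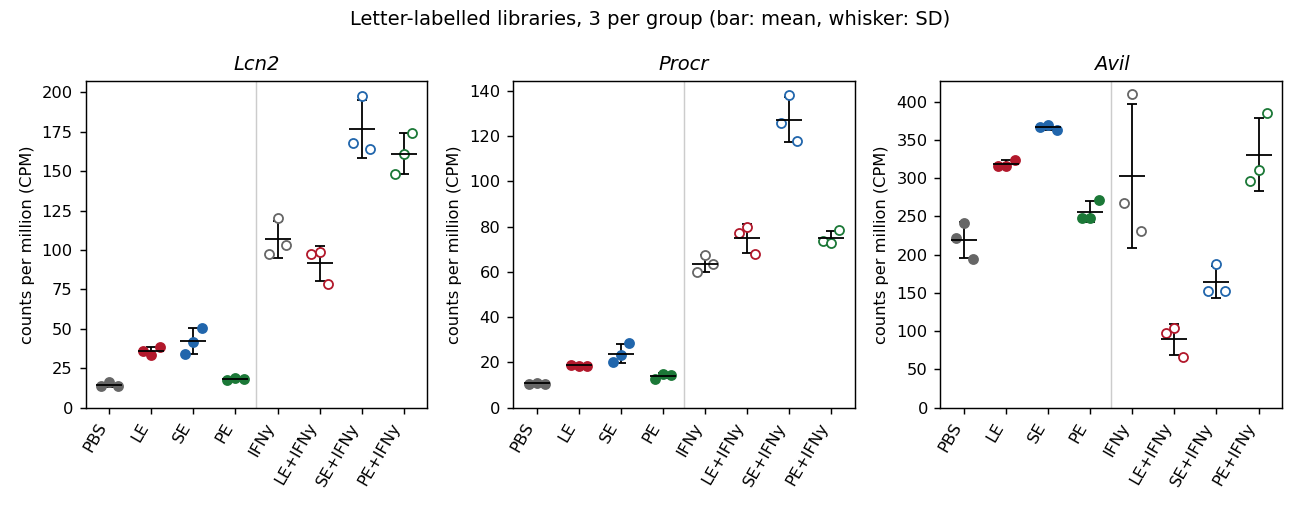
Level of each gene in CPM (y axis, from 0) in every letter-labelled library by group (x axis), with 1 point per library, filled without and open with IFN-γ, a bar at the mean and whiskers of 1 SD (n = 3). Without IFN-γ the peptide groups sit above PBS for each gene, while with IFN-γ the LE+IFNy and SE+IFNy libraries of Avil fall to 65.9 to 188 CPM.

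These values chose the genes. Across the 12420 genes tested, LE alone called 3 (0.0242%), SE alone 239 (1.92%) and PE alone 389 (3.13%), where called means an edgeR adjusted p under 0.05 and a fold change over 1.5. The fold of Avil with LE rounded to 1.5 and so lay at the edge of the rule, while Procr was at 1.8. The nearest genes outside the rule were Rasgrp3, Blvrb, Esd, Cybb and Slc48a1, whose log2 fold changes with LE were -0.34, 0.53, 0.39, -0.47 and 0.44. The contrasts with LE, SE and PE share their PBS libraries. Between peptides, where no PBS library enters, the estimates from a fit of all 8 groups (no test) were 0.92 ± 0.128 for Lcn2, 0.37 ± 0.107 for Procr and 0.27 ± 0.155 for Avil in LE against PE. For LE against SE they were -0.27 ± 0.121, -0.39 ± 0.103 and -0.23 ± 0.155, and for SE against PE 1.19 ± 0.127, 0.76 ± 0.106 and 0.50 ± 0.155.

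The response to IFN-γ itself separated the genes. Lcn2 stood at 97.6, 120 and 103 CPM in the letter-labelled IFNy libraries, which is 7.31 times the PBS mean. Procr stood at 59.8, 67.3 and 63.4 CPM, 5.96 times the PBS mean. Both were above every library without IFN-γ. Avil stood at 268, 410 and 231 CPM, and these overlapped the PBS libraries, since replicate 3 lay below the highest PBS library. Replicate 2 lay far above the other 2. The log2 differences against PBS were 2.885 ± 0.128 for Lcn2, 2.59 ± 0.104 for Procr and 0.48 ± 0.156 for Avil, given without a test because the PBS libraries entered the choice of genes.

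The study's Model A sets a peptide given together with IFN-γ against IFN-γ by itself. The study drew on 6 replicates a group, whereas only the 3 letter-labelled libraries a group were used here. None of these libraries chose the genes, so the contrast was tested. With LE, Avil fell and neither Lcn2 nor Procr was called, where 15.5% of 12720 genes were called. Avil stood at 98.2, 104 and 65.9 CPM in LE+IFNy, below every IFNy library. Its log2 fold change was -1.75 (standard error 0.178, edgeR quasi-likelihood adjusted p 3.23e-07), which is 0.294 of the IFNy mean in CPM. Lcn2 stood at 97.5, 98.7 and 78.7 CPM in LE+IFNy, overlapping IFNy. Its log2 difference was -0.21 (95% interval -0.40 to -0.01, edgeR adjusted p 0.0763). Procr stood at 77, 79.7 and 67.7 CPM, each above the highest IFNy library. Its difference of 0.25 (standard error 0.0711, edgeR adjusted p 0.00672) passed the p threshold but not the fold of 1.5.

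With SE all 3 genes were called, where 7.39% of genes were. Lcn2 stood at 168, 198 and 164 CPM in SE+IFNy, above every IFNy library, and rose by a log2 fold change of 0.75 (standard error 0.0929, edgeR adjusted p 6.87e-06). Procr stood at 126, 138 and 118 CPM and rose by 1.03 (standard error 0.0705, edgeR adjusted p 8.58e-09), to 2 times the IFNy mean. Avil moved the other way. It stood at 152, 188 and 153 CPM, below every IFNy library, with a log2 fold change of -0.86 (standard error 0.172, edgeR adjusted p 0.000889). Without IFNy replicate 2, the highest of its group, the fall of Avil was -0.58 and no longer passed the fold of 1.5.

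With PE only Lcn2 was called, where 0.629% of genes were. It stood at 148, 161 and 174 CPM in PE+IFNy, above every IFNy library, and rose by 0.62 (standard error 0.093, edgeR adjusted p 0.00234). This call was lost at the fold threshold without IFNy replicate 1 and without PE+IFNy replicate 3, each of which left a difference of 0.55. Procr stood at 73.7, 72.7 and 78.3 CPM, with a difference of 0.27 (standard error 0.0713, edgeR adjusted p 0.0278) under the fold of 1.5. Avil stood at 297, 311 and 385 CPM and overlapped IFNy. Its difference was 0.16 (95% interval -0.20 to 0.51, edgeR adjusted p 0.587).

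**Figure D2:**
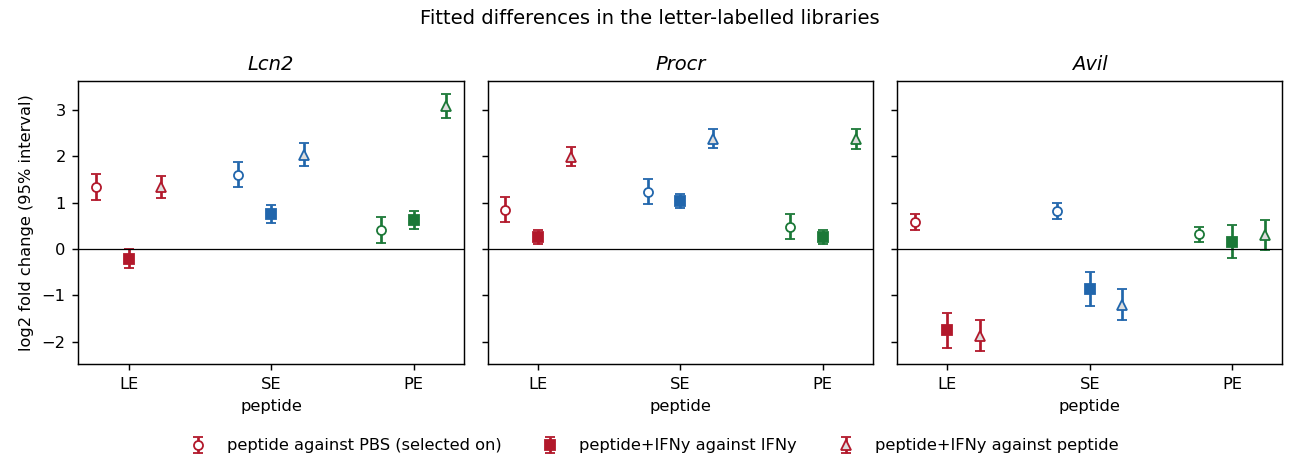
Fitted log2 fold change with its 95% interval (y axis) for each peptide (x axis), with circles for peptide against PBS (the contrast that chose the genes), squares for peptide+IFNy against IFNy and triangles for peptide+IFNy against peptide. For Avil the LE circle is at 0.59 and the LE square at -1.75, whereas for Procr all 3 circles and squares lie above 0.

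The peptides differ in sequence within the same segment of the DR β chain and were compared at 1 matched dose and time in the presence of IFN-γ, as 3 pairs for each of the 3 genes, with p-values adjusted over the 12720 genes of each pair. LE+IFNy was below SE+IFNy for all 3 genes, where 4.93% of genes were called. The log2 differences were -0.96 for Lcn2 (standard error 0.0933, edgeR adjusted p 4.29e-06), -0.78 for Procr (standard error 0.0697, edgeR adjusted p 2.71e-06) and -0.89 for Avil (standard error 0.176, edgeR adjusted p 0.00106). LE+IFNy was below PE+IFNy for Lcn2 by -0.82 (standard error 0.0934, edgeR adjusted p 8.1e-07) and for Avil by -1.90 (standard error 0.178, edgeR adjusted p 9.13e-08), where 21.6% of genes were called. For Procr that pair differed by -0.015 with an interval of -0.16 to 0.13 (edgeR adjusted p 0.872). SE+IFNy was above PE+IFNy for Procr by 0.76 (standard error 0.0699, edgeR adjusted p 2.69e-07) and below it for Avil by -1.01 (standard error 0.173, edgeR adjusted p 0.000202), where 7.59% of genes were called. For Lcn2 that pair differed by 0.14 with an interval of -0.06 to 0.33 (edgeR adjusted p 0.266).

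The study's Model B sets the same libraries against those of the peptide by itself. It is given without a test because the peptide-alone libraries entered the choice of genes. Lcn2 and Procr were higher with IFN-γ under every peptide, and Avil was lower under LE and SE. For Lcn2 the log2 differences were 1.33 ± 0.118 under LE, 2.03 ± 0.118 under SE and 3.08 ± 0.127 under PE. For Procr they were 1.98 ± 0.099, 2.38 ± 0.0978 and 2.36 ± 0.102 in the same order. For Avil they were -1.86 ± 0.162, -1.20 ± 0.158 and 0.31 ± 0.155. Every LE+IFNy and SE+IFNy library of Avil lay below every library of LE and SE alone and below every PBS library.

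Ordered by mean level over the 8 letter-labelled groups, Lcn2 ran from PBS at 14.6 ± 1.31 CPM (SD, n = 3) to SE+IFNy at 177 ± 18.6 CPM. SE overlapped LE, IFNy overlapped LE+IFNy, and SE+IFNy overlapped PE+IFNy, and the other neighbours in that order did not overlap. Procr ran from PBS at 10.6 ± 0.238 CPM to SE+IFNy at 127 ± 9.9 CPM. Its only overlapping neighbours were LE+IFNy at 74.8 ± 6.26 CPM and PE+IFNy at 74.9 ± 3.01 CPM. Avil ran from LE+IFNy at 89.2 ± 20.4 CPM to SE at 367 ± 3.24 CPM. Its 4 lowest groups, LE+IFNy, SE+IFNy, PBS and PE, were separate, and IFNy, LE, PE+IFNy and SE, next in rising order, each overlapped the neighbour below.

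Over the 24 letter-labelled libraries the log2(CPM + 0.5) levels of Lcn2 and Procr had a Pearson r of 0.977. Avil had an r of -0.182 with Lcn2 and -0.361 with Procr over the same libraries. Over the 12 libraries without IFN-γ the 3 pairs had r of 0.969 (Lcn2 and Procr), 0.949 (Lcn2 and Avil) and 0.938 (Procr and Avil). These are descriptions across libraries that fall into the same few groups, and they carry no p. The 12 libraries include the PBS and LE libraries that chose all 3 genes. A high r between members there follows in part from that choice. Among 11244 genes, the most alike to Lcn2 over the 24 libraries were Fosl1 (an AP-1 subunit) at 0.984, Procr, and Isg15 (an interferon-induced ubiquitin-like modifier) at 0.966. To Procr they were Esd at 0.983, Crlf2 at 0.981 and Prdx5 at 0.98, and to Avil Os9 at 0.976, Pla2g12a at 0.974 and Akr1b7 at 0.972. Over the 12 libraries without IFN-γ, Fosl1 had 0.965 with Lcn2 and 0.951 with Procr. Grina had 0.95 with Lcn2 and Cdsn 0.95 with Procr over those libraries, and Slc48a1 (a heme transporter) had 0.961, Esd 0.955 and Hapln4 0.951 with Avil.

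Genes known to work with each member were counted from 4 lists. Without IFN-γ the share called over all genes was 0.0242% (LE), 1.92% (SE) and 3.13% (PE). In the list of siderophore, iron and acute-phase genes (22 listed beside Lcn2) 16 were tested, and 1 was called, Ireb2, an iron-sensing RNA-binding protein gene, lower with PE by -0.61 (edgeR adjusted p 0.044). In the protein C and coagulation list (29 beside Procr) 16 were tested and 1 was called, S1pr1, a sphingosine phosphate receptor gene, lower with SE by -0.63 (edgeR adjusted p 0.00959). Both are named after their values were seen, as the only calls of that fit in these lists. With no low-count filter or with the replicate block the iron list gained 1 higher gene with LE and 1 with SE. S1pr1 was not called without PBS replicate 3 or SE replicate 3, nor Ireb2 without PBS replicate 1, PE replicate 1 or PE replicate 3. None of the 17 tested genes of the NF-κB, IκBζ and C/EBP list (24 listed) and none of the 11 tested genes of the gelsolin/villin and actin list (16 beside Avil) was called for any peptide alone by DESeq2 or by edgeR with its filter and no block, and 2 to 5 genes of these lists had an unadjusted p under 0.05 in each edgeR contrast. In the NF-κB list edgeR called 1 gene higher with SE and 1 lower with PE with no low-count filter, and 1 lower with PE with the replicate block or without PE replicate 2. List medians for LE alone were between 0.096 and 0.143, where the median of all genes was -0.01.

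With IFN-γ the share called over all genes was 15.5% (LE), 7.39% (SE) and 0.629% (PE), against which the counts of the 4 lists stand. Of 15 tested iron and acute-phase genes, 3 rose and 1 fell with LE, 4 rose with SE and 1 (Saa3) fell with PE, a call lost without PE+IFNy replicate 1, with list medians of 0.34, 0.34 and -0.03. Slc40a1, the iron exporter ferroportin, rose by 0.99 with LE (edgeR adjusted p 6.97e-09) and by 0.91 with SE (edgeR adjusted p 4.36e-08). Tfrc, the transferrin receptor, rose by 1.13 with LE (edgeR adjusted p 5.63e-09), and Hmox1, heme oxygenase 1, by 1.08 with SE (edgeR adjusted p 4.22e-09). Slc22a17, the lipocalin 2 receptor, fell by -0.77 with LE (edgeR adjusted p 7.9e-06), from 11.3 to 6.54 CPM. Mmp9, the gelatinase gene, rose by 0.86 with LE (edgeR adjusted p 2.71e-05) and by 0.60 with SE (edgeR adjusted p 0.00165). Its level was 13.8 CPM with PBS and 4.16 CPM with IFNy, the opposite order to Lcn2. Lcn2 itself was not called with LE, while Mmp9 and Slc22a17 were.

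Of 20 tested genes of the NF-κB, IκBζ and C/EBP list, 10 rose with LE, 9 with SE and 1 (Csf3, at most 0.041 CPM in any IFNy library) with PE by edgeR but 0 by DESeq2, and none fell. The list medians were 0.74, 0.53 and 0.06, against -0.0102, -0.00612 and -0.00424 over all genes. Nfkbiz, which encodes IκBζ, rose by 1.35 with LE (edgeR adjusted p 1.35e-07) and by 0.66 with SE (edgeR adjusted p 0.000758), from 18.8 CPM in IFNy to 47.4 CPM in LE+IFNy. In SE+IFNy it had 29 CPM, while Lcn2 had 91.6 CPM in LE+IFNy and 177 CPM in SE+IFNy. Cebpb differed by 0.05 with LE (edgeR adjusted p 0.485) and by 0.28 with SE (edgeR adjusted p 0.00139), under the fold of 1.5, and Cebpd by -0.09 and 0.25 (edgeR adjusted p 0.38 and 0.0191). The 4 genes of this list with the lowest p for LE were Cxcl2 (a neutrophil chemokine), Tnf, Tnfaip3 (an NF-κB inhibitor) and Ptgs2 (cyclooxygenase 2), which rose by 2.20, 1.10, 1.51 and 2.07. None of them passed the test with PE, where Lcn2 was called.

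Of 17 tested protein C and coagulation genes, 8 rose and 1 (S1pr1) fell with LE, 4 rose with SE and 0 were called with PE by edgeR or DESeq2 (5 with an unadjusted p under 0.05; 1 lower with no low-count filter), with medians of 0.59, 0.30 and -0.07. Without IFNy replicate 2, SE had 4 higher and 2 lower. F10, coagulation factor X, rose by 2.05 with LE (edgeR adjusted p 3.8e-09) and by 1.07 with SE (edgeR adjusted p 2.28e-05). Itgb2 and Itgam, the chains of the Mac-1 integrin, rose by 0.74 and 0.80 with LE. Pros1, the protein S gene, rose by 0.59 with LE (edgeR adjusted p 0.00509). The direct partners of the receptor were scarce. Thbd was at 2.67 CPM with PBS and 0.886 CPM with IFNy and was not called with LE (-0.44, edgeR adjusted p 0.236), SE or PE. F2r had 0 counts in every letter-labelled library, which allows up to 3 counts a library as counting error, and F3 (tissue factor) had at most 1.15 CPM as a group mean.

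Of 13 tested gelsolin/villin and actin genes, 2 rose with LE, Vil1 and Scin (1 by DESeq2), where 15.5% of all genes were called. With SE and PE 0 were called by edgeR or DESeq2 (6 and 4 with an unadjusted p under 0.05), and the medians were 0.07, 0.17 and -0.04. With no low-count filter edgeR called 1 higher with SE and 1 lower with PE, and the SE call also came without IFNy replicate 1, IFNy replicate 3 or SE+IFNy replicate 2. Vil1 and Scin are low genes, and neither was called with LE without IFNy replicate 2. Vil1 reached 0.58 CPM and Scin 1.89 CPM in LE+IFNy, with log2 fold changes of 2.70 (standard error 0.893, edgeR adjusted p 0.0173) and 1.09 (standard error 0.348, edgeR adjusted p 0.0144). The abundant relatives of Avil were not called. With LE, Gsn (gelsolin) differed by -0.07 (edgeR adjusted p 0.347), Capg by -0.18 (edgeR adjusted p 0.00458), Flii by -0.25 (edgeR adjusted p 0.00051) and Svil by -0.28 (edgeR adjusted p 0.0719). Each of these lies closer to 0 than the -1.75 of Avil, and the difference between genes was not tested.

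**Figure D3:**
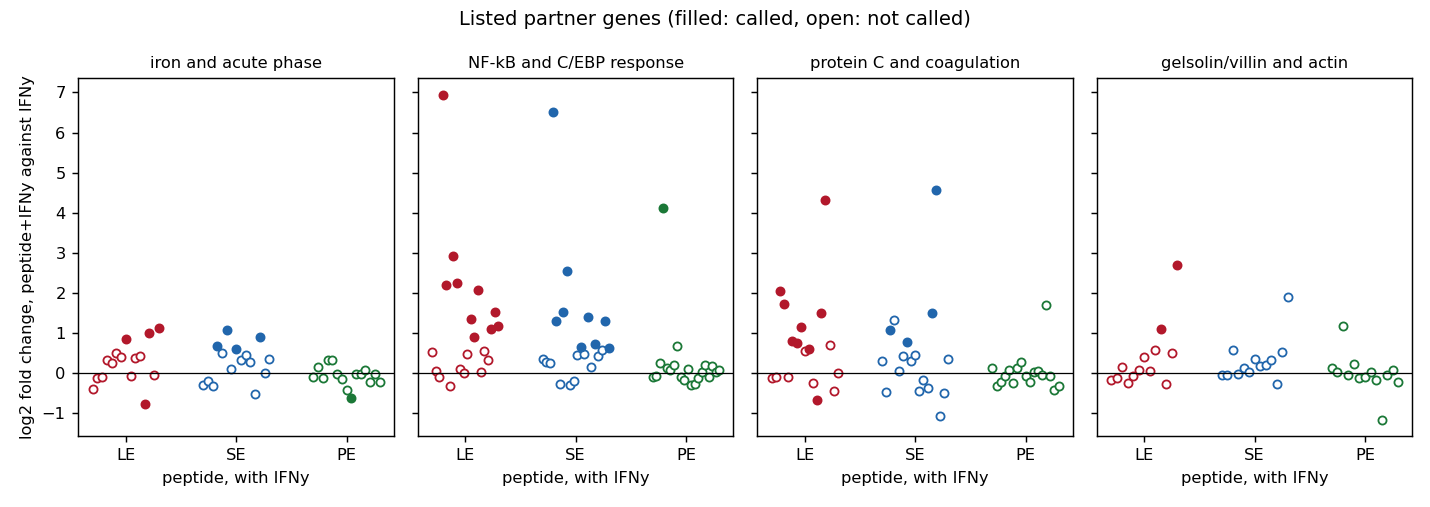
Log2 fold change of peptide+IFNy against IFNy (y axis) for the tested genes of each list (1 panel a list, members left out) by peptide (x axis), filled where called and open where not. The NF-κB and C/EBP panel holds 10 filled points under LE, 9 under SE and 1 under PE, and the gelsolin/villin panel holds 2, both for LE.

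In the HLA-labelled series the groups are kept as labelled, and the IFN-γ score is given beside the values because it went against the label in 12 of 24 libraries. In the deposited table each HLA-named trio of columns follows a letter-named trio, and the score went with the IFN-γ label of that preceding trio in 24 of 24 HLA-labelled libraries. Which of these labels is right was not tested, so each value below belongs to libraries labelled so. The libraries labelled LE and PE had scores of 7.02 to 7.09 and 6.86 to 7.03, and those labelled IFNy and SE+IFNy of 1.59 to 1.79 and 1.59 to 1.73. PBS replicate 6 also stood apart, with Lcn2 at 149 CPM where the other PBS libraries had 21.1 and 19.6 CPM, and Avil at 521 CPM where they had 308 and 305 CPM. LE replicate 6 stood above its group too, with Lcn2 at 69.5 CPM against 30.3 and 25.6 CPM. PE replicate 6 had Lcn2 at 64.9 CPM against 46 and 45.5 CPM. SE replicate 6 did not, with Lcn2 at 17.5 CPM against 21.5 and 23.5 CPM. Avil was lowest in the libraries labelled LE, at 7.97, 8.06 and 38.3 CPM, and in those labelled PE, at 12.8, 13.5 and 36.1 CPM, and stood at 160 to 521 CPM in all others. Lcn2 was lowest in the libraries labelled IFNy (7.97 to 10.2 CPM) and SE+IFNy (4.29 to 6.45 CPM) and highest, apart from PBS replicate 6, in those labelled LE+IFNy (104 to 116 CPM). Procr was also lowest in the libraries labelled IFNy (10.3 to 12.2 CPM) and SE+IFNy (8.83 to 11.5 CPM), and reached 93.8 CPM in 1 library labelled LE.

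**Figure D4:**
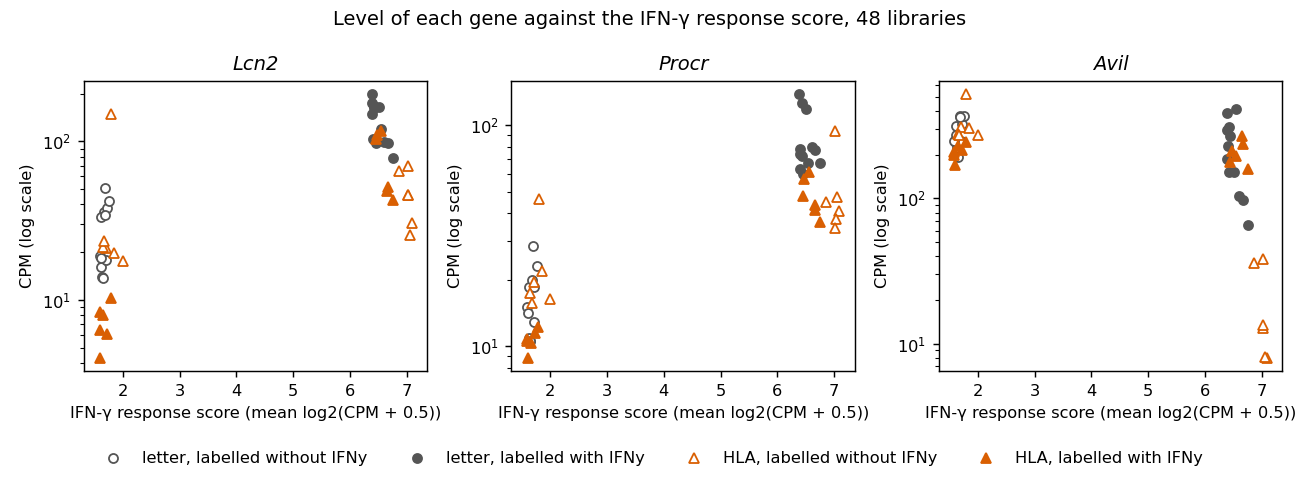
Level of each gene in CPM (y axis, log scale) against the IFN-γ response score (x axis) for the 48 libraries, circles for letter-labelled and triangles for HLA-labelled, filled where the label includes IFN-γ. The open triangles at scores of 6.86 to 7.09 are the libraries labelled LE and PE, and they hold the lowest Avil values, 7.97 to 38.3 CPM.

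These libraries did not enter the choice of genes, so the labelled groups were tested. In the libraries labelled LE against those labelled PBS, where 28.6% of genes were called, Procr was higher by 1.15 (standard error 0.303, edgeR adjusted p 0.00499) and Avil lower by -4.28 (standard error 0.519, edgeR adjusted p 6.68e-06), while Lcn2 differed by -0.51 (edgeR adjusted p 0.486). Without PBS replicate 6 the Lcn2 difference was 1.14. In the libraries labelled SE 0% of 14230 genes were called against PBS by edgeR (1046 had an unadjusted p under 0.05, and DESeq2 called 3). The 3 members differed by -1.58, -0.81 and -0.44 there, and Lcn2 by 0.06 without PBS replicate 6. In the libraries labelled PE, where 25.5% were called, Avil was lower by -4.16 (edgeR adjusted p 9.43e-06), and Lcn2 and Procr differed by -0.25 and 0.44. Without PBS replicate 6 these 2 values were 1.39 and 0.95, and Procr was then called. The IFN-γ scores differ between the groups compared with LE and PE here, and the part of this in the differences was not tested.

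**Figure D5:**
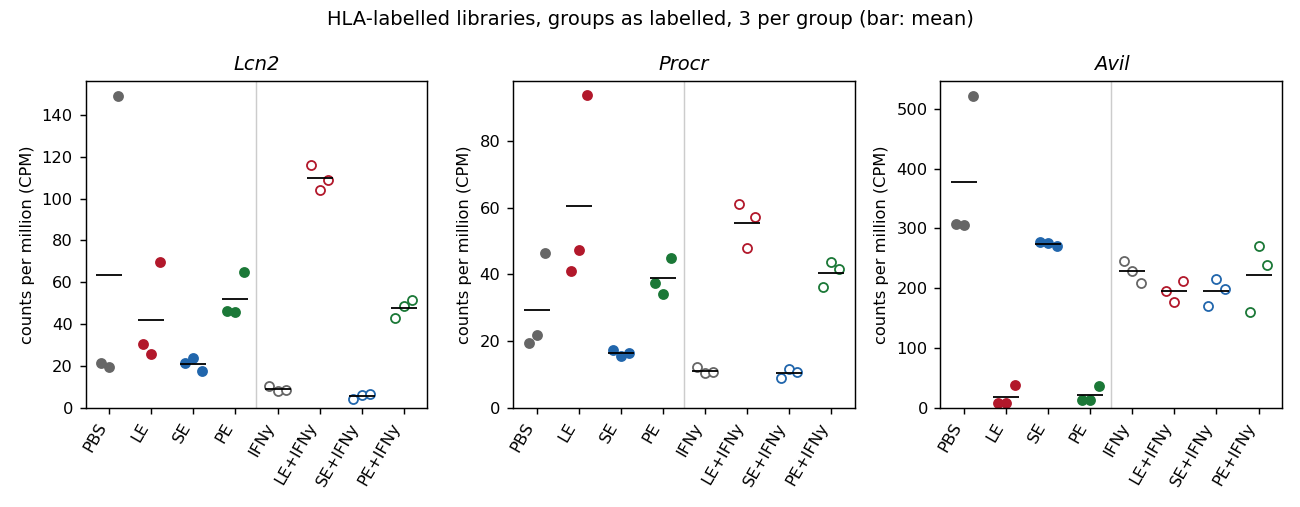
Level of each gene in CPM (y axis, from 0) in every HLA-labelled library by labelled group (x axis), filled without and open with IFN-γ in the label, with a bar at the mean. Avil stays at or below 38.3 CPM in the libraries labelled LE and PE, and PBS replicate 6 stands above the other PBS libraries for each gene.

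In Model A within the HLA labels, the libraries labelled LE+IFNy (13.7% of genes called against those labelled IFNy) had Lcn2 higher by 3.61 (standard error 0.117, edgeR adjusted p 8.9e-14) and Procr by 2.31 (edgeR adjusted p 3.71e-11), with Avil at -0.245 (edgeR adjusted p 0.192). Those labelled PE+IFNy (13.4% called) had 2.425, 1.88 and -0.03, the first 2 called. Those labelled SE+IFNy (0.0709% called) had -0.62, -0.06 and -0.19, none called by edgeR. In these contrasts the libraries labelled IFNy and SE+IFNy had the low IFN-γ scores and those labelled LE+IFNy and PE+IFNy scores of 6.45 to 6.55 and 6.66 to 6.75. What part this had in the differences was not tested.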

How the data were processed

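Polyadenylated RNA of RAW264.7 cells was sequenced from stranded libraries as single-end reads. The authors counted uniquely aligned reads per gene with featureCounts on GENCODE M12 (GRCm38.p5) and deposited these counts without normalization in 1 table, which was used as deposited. The aligner and the strand setting of the counting are not given in the sources used here. In that table each 3 letter-named columns are followed by 3 HLA-named columns that the labels place in another group, in 8 of 8 cases. The IFN-γ score went with the own label in 12 of 24 HLA-labelled libraries and with the label of the letter-named columns before it in 24 of 24. Groups were taken from the labels alone. Of the gene names 26 look like dates, and none of these is named. Counting precision rests on the library totals, and zero limits cover counting error only. The 95% intervals and standard errors come from the edgeR fit and include its estimated spread between libraries.

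Genes were tested with edgeR 4.0.16 (limma 3.58.1, R 4.3.3; quasi-likelihood F test, TMM scaling, filterByExpr) within each label series, and called at a Benjamini-Hochberg adjusted p under 0.05 and a fold change over 1.5. The ± values are standard errors. Alternatives were DESeq2 1.42.0, its size factors, no low-count filter, a replicate block, both series together, and leaving out each library. The edgeR and DESeq2 steps were tested on simulated data first. The 48 replicate pairs had a chi-square per degree of freedom of at least 3.89, so they differed by more than counting error. Each library was counted as 1, but this value cannot show that the libraries are independent.

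The members and lists were chosen with earlier results of these data known. Named are the members, their direct partners, up to 4 called genes per list with the lowest p for LE+IFNy, the 3 most alike genes, the 5 genes nearest outside the rule, and neighbours in the annotation. A gene that the rule names is not reported here.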

Additional observations from a re-analysis of the deposited data

Results flagged for a closer look

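The difference between peptide+IFNy and IFNy was itself different between the HLA-labelled and the letter-labelled libraries for 7 of the 9 combinations of gene and peptide, tested as the interaction of group and series with edgeR over 14678 genes. For LE the HLA value exceeded the letter value by 3.82 on the log2 scale for Lcn2 (standard error 0.158, adjusted p 7.11e-17), by 2.07 for Procr (adjusted p 1.67e-12) and by 1.51 for Avil (adjusted p 2.17e-05). For SE the difference was -1.38 for Lcn2 (adjusted p 9.71e-06) and -1.10 for Procr (adjusted p 1e-05). For PE it was 1.82 for Lcn2 (adjusted p 5.99e-10) and 1.625 for Procr (adjusted p 3.18e-10). Avil with SE (0.65, adjusted p 0.0908) and with PE (-0.17, adjusted p 0.667) did not pass. Over all genes 5557, 1796 and 4264 passed the same test for LE, SE and PE. The IFN-γ scores of the HLA-labelled IFNy libraries, 1.59 to 1.79, stand beside 6.4 to 6.54 in the letter-labelled IFNy libraries. HLA-labelled LE+IFNy and PE+IFNy libraries had 6.45 to 6.55 and 6.66 to 6.75, and SE+IFNy libraries 1.59 to 1.73. The letter-labelled libraries with IFN-γ all had 6.38 to 6.75. The interaction therefore cannot tell a differing peptide effect apart from a differing IFN-γ response. The part of these scores in the 7 differences was not tested.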

How the results depend on the processing

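Limits: 3 libraries a group, 1 cell line, labels at odds with the IFN-γ score in 12 HLA-labelled libraries. Within the letter-labelled series, 175 of 180 alternative values of the tested members kept direction and call. For the values against PBS, 90 of 90 kept their direction. These are refits with libraries that chose the genes, so they are a description and no support. With 1 library left out, LE alone called 1 to 3 genes, so not every member kept its call there. With both series pooled by group, LE+IFNy against IFNy gave Lcn2 0.83 and Avil -0.89, SE+IFNy gave 0.68, 0.91 and -0.53 (Lcn2, Procr, Avil) and PE+IFNy gave Lcn2 0.88. The pairs gave 0.15, -0.077 and -0.36 (LE-SE), -0.05, 0.16 and -0.97 (LE-PE), and -0.20, 0.24 and -0.61 (SE-PE). None of these was called. With a series term the values were Lcn2 2.10 and Procr 1.36 for LE+IFNy (both called), 0.47, 0.72 and -0.55 for SE+IFNy and Lcn2 1.41 for PE+IFNy, and for the pairs 1.62, 0.635 and -0.38 (LE-SE), Lcn2 0.68 and Procr 0.29 (LE-PE), and -0.94, -0.35 and -0.63 (SE-PE). Among HLA-labelled libraries, no filter made Lcn2 -1.595 and Procr -0.825 called for SE, and Lcn2 -0.63 for SE+IFNy, which DESeq2 (-0.62) also called. The cause was not tested.

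Leaving out 1 library gave these ranges in the letter-labelled series: Lcn2 for PE+IFNy 0.55 to 0.71, Avil for SE+IFNy -1.01 to -0.58, Procr for LE-PE -0.062 to 0.044. In the HLA-labelled series they were, for Lcn2 against PBS, -1.07 to 1.135 with LE, -2.01 to 0.057 with SE and -0.67 to 1.39 with PE, for Procr with PE 0.21 to 0.95, for Procr with SE+IFNy -0.127 to 0.032 and for Avil with PE+IFNy -0.19 to 0.16.

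Same-numbered letter-labelled libraries deviated together in part only (correlation over 0.1 in 12 of 18 pairs without and 4 of 18 with IFN-γ, own number best for 11 and 8 of 12 libraries, a hint from the data). Among HLA-labelled libraries the correlation was over 0.1 in 6 of 18 pairs labelled without and 8 of 18 labelled with IFN-γ. Own number was best there for 10 of 12 libraries in each. The replicate block gave 7, 344 and 514 calls for LE, SE and PE alone and 1974, 949 and 111 with IFN-γ, changed no member's call in the letter-labelled series and made Lcn2 0.18 for HLA-labelled PE against PBS. Without the filter 57 genes were called for LE alone and 152 for PE+IFNy, and DESeq2 called 31 for the latter. Leaving out 1 library gave 1 to 3, 48 to 381 and 78 to 1002 calls for LE, SE and PE alone and 18 to 157 for PE+IFNy. Pooled, LE+IFNy, SE+IFNy and PE+IFNy gave 110, 0 and 0 calls, and 1048, 7 and 1 with the series term. Among HLA-labelled libraries SE gave 3 calls by DESeq2 and 65 with no filter, and SE+IFNy 30 and 50 (3 to 68 leaving out 1).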
